A study of Mus musculus with 9 samples.

Results

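The 29 genes described here mark dorsal forebrain progenitors and the cortical projection neurons made from them. They encode transcription factors and cofactors, apart from *Crym*, which encodes a thyroid hormone-binding protein. They were taken by gene symbol from the counts of the 55401 genes measured, and each of the 29 symbols was found once. They comprise 4 dorsal progenitor genes, 4 neurogenic and intermediate progenitor genes, 6 genes of projection neurons of several layers, 9 deep-layer genes and 6 upper-layer genes. The assignment of a gene to a role followed textbook knowledge and was made with earlier results of these data known.

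Bulk forebrain RNA was sequenced from 5 WT (*Npas3*+/+) and 4 HET (*Npas3*+/-) female mouse embryos at E16 to E17, on the C57BL/6J background. HET embryos carried a constitutive deletion of 1 *Npas3* allele in every cell, and WT littermates from the same kind of cross served as controls. NPAS3 is a bHLH-PAS transcription factor, and the study profiled these embryos to find genes that depend on it, with energy metabolism as its main interest. No treatment was given, and each sample was 1 embryo. Which embryos shared a litter, and whether an embryo was at E16 or at E17, are not given in the sources used here. WT embryos are called WT5, WT15, WT16, WT41 and WT43 and HET embryos HET5, HET6, HET7 and HET24, and series of values follow this order throughout.

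Total counts were between 42640218 and 62830060 per embryo. *Npas3* itself was at 40.8, 35.4, 29.7, 38.3 and 37.0 CPM in the WT embryos and 27.9, 28.2, 34.1 and 27.8 CPM in the HET embryos. The groups overlapped, since HET7 lay above WT16, and the other HET embryos lay below every WT embryo. On the log2 scale HET differed from WT by −0.30 with a standard error (SE) of 0.10. In edgeR the unadjusted p was 0.0134, and the p adjusted over all genes tested was 0.877. The labels name astrocytes as the cell type, while the paper describes bulk forebrain tissue. Of 8 markers of mature astrocytes, 4 stayed under 1 CPM in every embryo. The 4 others were *Slc1a2* at 82.7 to 185 CPM, *Aldh1l1* at 2.79 to 31.7 CPM, *Gfap* at 4.23 to 12.5 CPM and *Aqp4* at 0.163 to 2.02 CPM. Whether the label holds was not tested. Of 9 midbrain and hindbrain genes, 4 had no count in any embryo. Choroid plexus RNA was unequal, with 8 marker genes summing to 2297 to 2837 CPM in WT15, WT16 and WT41, 523 CPM in HET24 and 17.4 to 41.1 CPM in the other 5 embryos.

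In the embryonic cortex, radial glia line the ventricle and express *Pax6* with the Emx and *Lhx2* homeodomain factors that specify dorsal identity. Proneural bHLH factors of the Neurog family push their daughters toward neurogenesis, intermediate progenitors switch on *Eomes*, and newborn projection neurons then express Neurod factors and *Tbr1*. Neurons are added from the inside out, so that deep-layer neurons are born before upper-layer neurons, and at the ages sampled here upper-layer neurons are still being made and migrating.

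All 29 genes passed edgeR's filter on low counts, and none differed between HET and WT at an adjusted p under 0.05. Of all 17818 genes tested, 25 passed this threshold (5 higher and 20 lower in HET), which is 0.14%. None of the 29 had an unadjusted p under 0.05 either, against 965 of all genes tested (5.42%). In none of the 29 were the WT and HET embryos separated without overlap, against 330 of all genes tested (1.85%). The estimate was above 0 for 19 of the 29 and below 0 for 10, and the median log2 fold change was 0.047, beside −0.0046 over all genes tested. The median absolute log2 fold change was 0.082 for the 29 genes and 0.091 for all genes tested. In bulk tissue, fewer cells of a type and less RNA per cell cannot be told apart, and this holds for every level given here.

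The intervals show how large a difference these embryos could still hide. For 26 of the 29 genes the 95% interval of the HET to WT ratio stayed within 1.5-fold in either direction, and for 28 it stayed within 2-fold. The exception was *Zbtb20*, whose interval reached 2.03-fold. The 2 others beyond 1.5-fold were *Neurog1* and *Pou3f1*. The biological coefficient of variation between embryos of a group was lowest for *Lmo4* (8.78%), *Tle4* (9.59%) and *Bcl11b* (9.82%) and highest for *Neurog1* (33.7%), *Pou3f1* (29.9%) and *Foxp2* (26.0%), with a median of 13.98% over the 29 genes and 14.1% over all genes tested.

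**Figure D1:**
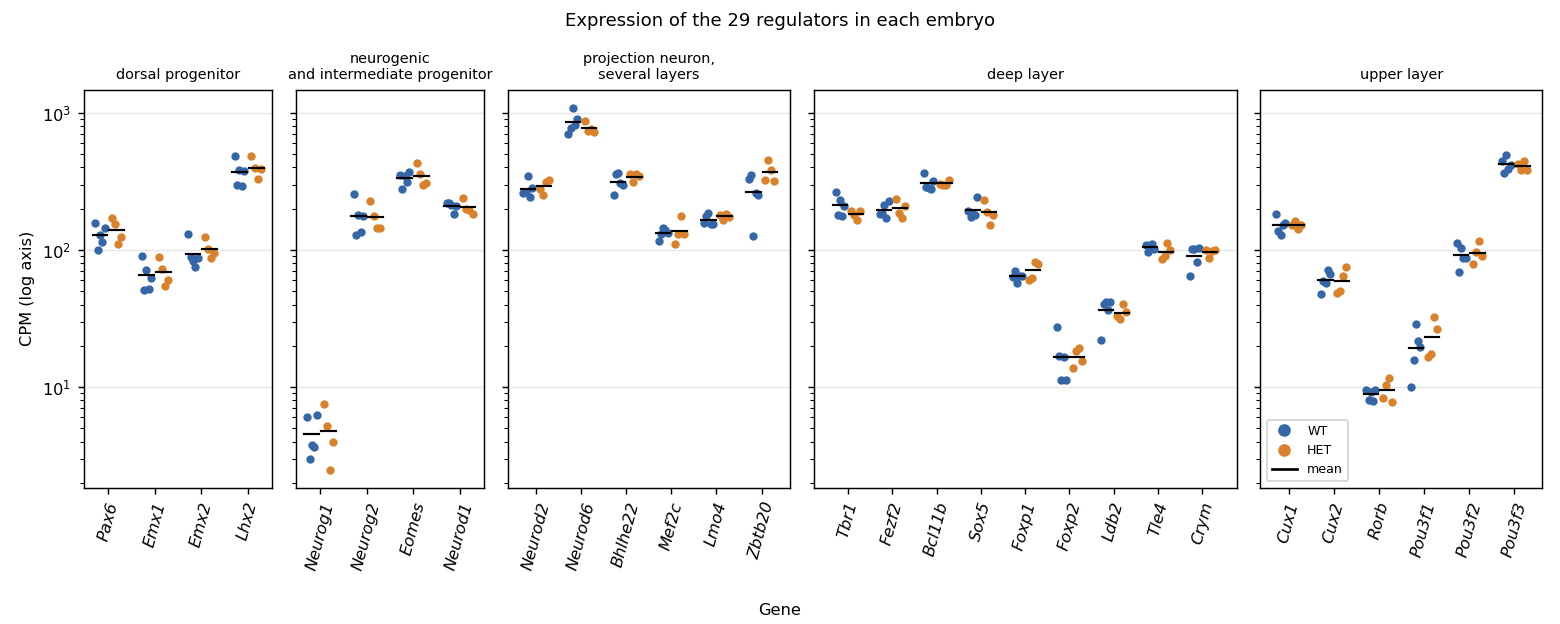
Expression of the 29 genes in each embryo, in CPM on a log axis, in 5 panels by role; each point is 1 embryo (WT in blue, HET in orange) and each bar is the mean of a group. WT and HET points overlap for every gene, and levels run from about 2.50 CPM for *Neurog1* in HET7 to 1092 CPM for *Neurod6* in WT16.

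**Figure D2:**
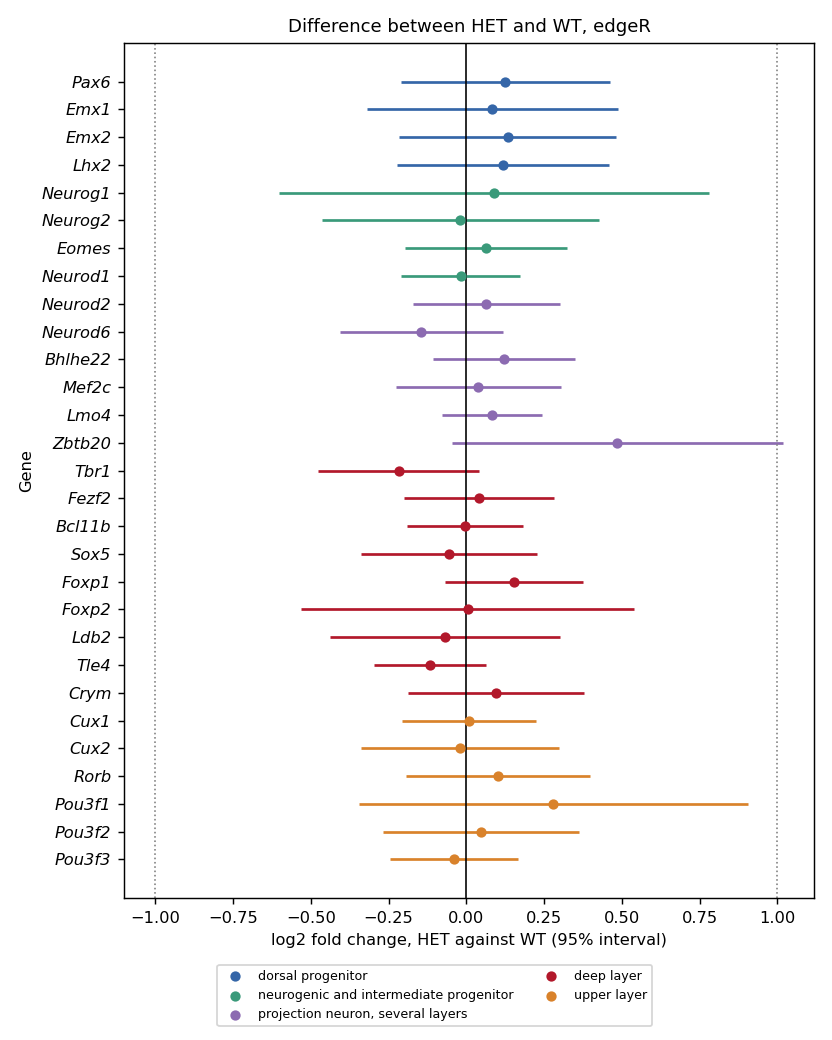
Log2 fold change of HET against WT for each gene (points) with its 95% interval (lines), from edgeR, coloured by role; dotted lines mark 2-fold. Every interval crosses 0, and only that of *Zbtb20* reaches past 2-fold.

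Among the dorsal progenitor genes, all 4 estimates were slightly above 0, from 0.084 to 0.13, and none passed the test (lowest adjusted p = 0.932). *Pax6* (chr2:105668900-105697364, plus strand), the paired-box factor of radial glia, was at 157, 99.7, 129, 115 and 145 CPM in the WT embryos and 173, 155, 111 and 124 CPM in the HET embryos. HET5 was the highest embryo and WT5 the second, WT15 was the lowest, and the groups overlapped. *Pax6* had a log2 fold change of 0.12 (SE 0.15, 95% interval −0.21 to 0.46, adjusted p = 0.933). *Emx2* (chr19:59458372-59465357, plus strand), a homeodomain factor that patterns the caudal and medial cortex, was at 132, 88.6, 83.0, 75.4 and 87.1 CPM in the WT embryos and 125, 102, 87.0 and 94.6 CPM in the HET embryos. WT5 and HET5 stood above the remaining embryos, which overlapped across genotypes. *Emx2* had a log2 fold change of 0.13 (SE 0.16, 95% interval −0.22 to 0.48, adjusted p = 0.932). Its relative *Emx1* ranged from 50.8 CPM in WT15 to 89.8 CPM in WT5 with a log2 fold change of 0.084. *Lhx2*, the LIM-homeodomain selector of cortical identity, ranged from 292 CPM in WT41 to 489 CPM in WT5 with a log2 fold change of 0.12. Both genes had WT5 and HET5 as their 2 highest embryos, as *Pax6* and *Emx2* did.

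These small upward estimates depended on which embryos entered. Without the 4 embryos with choroid plexus RNA, which leaves WT5 and WT43 against 3 HET embryos, all 4 turned negative: −0.048 for *Pax6*, −0.083 for *Emx1*, −0.063 for *Emx2* and −0.098 for *Lhx2*. Without WT5 alone, the log2 fold change of *Emx2* was 0.29. In that fit 3 of the 29 genes (*Emx2*, *Ldb2* and *Zbtb20*) had an unadjusted p under 0.05, against 9.97% of all genes tested. Without the 4 embryos with choroid plexus RNA it was also 3 of the 29 (*Bhlhe22*, *Zbtb20* and *Tbr1*), against 3.7% of all genes tested. With a choroid plexus score as covariate it was 2 (*Bhlhe22* and *Tbr1*), against 5.34%. No gene of the 29 had an adjusted p under 0.05 in these fits, the lowest being 0.395 without WT5.

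The proneural and intermediate progenitor genes were split, with 2 estimates above 0 and 2 below, all between −0.019 and 0.088. *Neurog2* (chr3:127633135-127635631, plus strand), the proneural bHLH factor of cortical radial glia, was at 257, 129.7, 179, 136 and 177 CPM in the WT embryos and 226, 179, 145 and 144 CPM in the HET embryos. WT5 was highest and HET5 second, WT15 and WT41 were lowest, and every HET embryo lay within the WT range. *Neurog2* had a log2 fold change of −0.019 (SE 0.20, 95% interval −0.46 to 0.43, adjusted p = 0.991). Its paralog *Neurog1* (chr13:56250478-56252163, minus strand) was far less abundant, also per kb of exon, at 6.04, 2.96, 3.78, 3.66 and 6.20 CPM in the WT embryos and 7.56, 5.22, 2.50 and 3.97 CPM in the HET embryos. Both the highest and the lowest embryo, HET5 and HET7, were HET. *Neurog1* had a log2 fold change of 0.088 (SE 0.31, 95% interval −0.60 to 0.78, adjusted p = 0.971), the widest interval among the progenitor genes, and rested on 121 to 349 reads per embryo.

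*Eomes* (chr9:118478212-118486132, plus strand), the T-box factor that defines intermediate progenitors, was at 355, 279, 345, 315 and 371 CPM in the WT embryos and 429, 359, 296 and 308 CPM in the HET embryos. HET5 was above every WT embryo, and the other HET embryos were mixed with WT. *Eomes* had a log2 fold change of 0.064 (SE 0.12, 95% interval −0.20 to 0.32, adjusted p = 0.943). *Neurod1* (chr2:79452521-79456751, minus strand), a bHLH factor switched on as intermediate progenitors become neurons, was at 219, 219, 212, 182 and 208 CPM in the WT embryos and 242, 201, 195 and 185 CPM in the HET embryos. Again HET5 was highest, and WT41 and HET24 were the lowest. *Neurod1* had a log2 fold change of −0.018 (SE 0.087, 95% interval −0.21 to 0.17, adjusted p = 0.977), and its whole range across the 9 embryos was 1.33-fold.

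Among the projection neuron genes that are not restricted to 1 layer, 5 of 6 estimates were above 0 and none passed the test. *Neurod2* (chr11:98325415-98329648, minus strand), a bHLH factor of postmitotic projection neurons, was at 259, 263, 344, 245 and 284 CPM in the WT embryos and 279.7, 253, 313 and 323 CPM in the HET embryos. WT16 was highest and WT41 lowest, with the HET embryos between them. *Neurod2* had a log2 fold change of 0.065 (SE 0.11, 95% interval −0.17 to 0.30, adjusted p = 0.940). *Neurod6* (chr6:55677822-55681263, minus strand), its close relative, with the highest level per kb of exon among the 29 genes, was at 707, 777, 1092, 817 and 898 CPM in the WT embryos and 875, 738, 762 and 730.5 CPM in the HET embryos. WT16 again stood highest and WT5 lowest, and all HET embryos lay within the WT range. *Neurod6* had a log2 fold change of −0.14 (SE 0.12, 95% interval −0.41 to 0.12, adjusted p = 0.911). Without WT16 it was −0.043, and without the embryos with choroid plexus RNA it was −0.019. *Bhlhe22* (chr3:18054174-18057517, plus strand), a bHLH repressor that acts in postmitotic area identity, was at 253, 359, 362, 308 and 297 CPM in the WT embryos and 357, 312, 356 and 349 CPM in the HET embryos. WT5 was the lowest embryo, and 3 of the 4 HET embryos were close to the 2 highest WT embryos. *Bhlhe22* had a log2 fold change of 0.12 (SE 0.10, 95% interval −0.11 to 0.35, adjusted p = 0.912). In edgeR it was 0.31 without the embryos with choroid plexus RNA (unadjusted p = 0.0210, adjusted p = 0.999) and 0.23 with the choroid plexus score as covariate (unadjusted p = 0.0259, adjusted p = 0.887). Without WT5 it was 0.051 (edgeR, unadjusted p = 0.552, adjusted p = 0.881).

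Sequence upstream of *Pax6*, *Neurog2*, *Neurod2* and *Neurod6*, which are used at successive stages, is shown because bHLH factors bind E-boxes, hexamers of the form CANNTG that read as CANNTG on both strands. The sequences are from RefSeq (GRCm38.p6) and hold the 250 bases before the annotated RefSeq start, 5′ to 3′ on the strand of the gene, with E-boxes in capitals. The *Pax6* window is chr2:105668646-105668895 on the plus strand, that of *Neurog2* is chr3:127632886-127633135 on the plus strand, that of *Neurod2* is chr11:98329646-98329895 on the minus strand and that of *Neurod6* is chr6:55681264-55681513 on the minus strand.
Pax6: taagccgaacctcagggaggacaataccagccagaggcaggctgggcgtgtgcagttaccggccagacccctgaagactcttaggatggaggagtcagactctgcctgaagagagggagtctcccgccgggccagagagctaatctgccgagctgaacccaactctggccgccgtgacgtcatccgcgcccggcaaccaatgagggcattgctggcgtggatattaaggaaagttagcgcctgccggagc
Neurog2: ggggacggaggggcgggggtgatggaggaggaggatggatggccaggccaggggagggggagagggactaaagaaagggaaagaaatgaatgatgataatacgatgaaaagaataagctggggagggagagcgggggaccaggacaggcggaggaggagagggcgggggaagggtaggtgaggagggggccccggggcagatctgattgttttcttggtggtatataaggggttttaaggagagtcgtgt
Neurod2: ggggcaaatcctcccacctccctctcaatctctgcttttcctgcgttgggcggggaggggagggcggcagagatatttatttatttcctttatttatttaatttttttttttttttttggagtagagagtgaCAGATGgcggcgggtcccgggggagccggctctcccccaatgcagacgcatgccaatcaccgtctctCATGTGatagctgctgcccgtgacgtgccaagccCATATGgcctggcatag
Neurod6: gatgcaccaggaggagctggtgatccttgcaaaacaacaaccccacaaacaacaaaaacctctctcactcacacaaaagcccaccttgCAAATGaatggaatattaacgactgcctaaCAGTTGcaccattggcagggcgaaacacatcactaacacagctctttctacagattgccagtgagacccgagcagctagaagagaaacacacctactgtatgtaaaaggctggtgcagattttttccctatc
The *Neurod2* window held 3 E-boxes and the *Neurod6* window 2, whereas the *Pax6* and *Neurog2* windows held none. A window was found for 24 of the 29 genes, and in 10 of these the window nearest to the GENCODE start held an E-box. Counting every window of these genes, 18 of 35 held one. Over all 32851 RefSeq windows of this length, 66.2% held one. In genome coordinates the RefSeq start nearest to the GENCODE start lay at −834871 bases from it for *Sox5* and at 371403 bases for *Zbtb20*. The nearest windows of the 24 genes had a median GC content of 61.0%, against 52.4% over all windows. *Bhlhe22*, *Crym*, *Foxp2*, *Ldb2* and *Pou3f1* had no window here. The letters alone do not show that a factor binds, and WT and HET levels of all 4 genes overlapped.

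*Zbtb20* (chr16:42875881-43642602, plus strand), a BTB zinc-finger repressor of hippocampal and cortical progenitors and neurons, had the largest estimate of the 29 genes. It was at 331, 351, 126, 261 and 251 CPM in the WT embryos and 326, 453, 381 and 318 CPM in the HET embryos. HET6 and HET7 lay above every WT embryo, WT16 lay far below all others, and HET5 and HET24 fell between WT embryos. *Zbtb20* had a log2 fold change of 0.49 (SE 0.24, 95% interval −0.047 to 1.02, adjusted p = 0.911) and an unadjusted p of 0.0699 in edgeR. Without WT16 the log2 fold change was 0.31, the lowest value on leaving out 1 embryo (edgeR, unadjusted p = 0.0547, adjusted p = 0.979). Without WT15 it was 0.61, the highest (edgeR, unadjusted p = 0.0296, adjusted p = 0.910). In edgeR the unadjusted p was 0.0248 without the filter on low counts (adjusted p = 0.784). It was 0.0493 with a ventral forebrain score as covariate (adjusted p = 0.803). DESeq2 gave an unadjusted p of 0.0346 and an adjusted p of 0.855. In other alternatives the unadjusted p of *Zbtb20* was above 0.05. The highest in edgeR were 0.1764 without HET6 (log2 fold change 0.38, adjusted p = 0.988) and 0.1595 with the choroid plexus score as covariate (log2 fold change 0.40, adjusted p = 0.887). *Lmo4*, a LIM-only cofactor of callosal and subcerebral neurons, ranged from 154 CPM in WT43 to 186 CPM in WT16 with a log2 fold change of 0.082. *Mef2c*, a MADS-box factor of neuronal maturation, ranged from 109.8 CPM in HET5 to 176 CPM in HET7 with a log2 fold change of 0.039, both ends being HET.

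The deep-layer genes had 5 estimates below 0 and 4 above, with a median log2 fold change of −0.0039. *Tbr1* (chr2:61802930-61814114, plus strand), the T-box factor of early-born, corticothalamic and Cajal-Retzius neurons, was at 267, 179, 232, 177 and 208 CPM in the WT embryos and 192, 180.3, 167 and 191 CPM in the HET embryos. All 4 HET embryos lay below WT5, WT16 and WT43, while WT15 and WT41 lay among them. *Tbr1* had a log2 fold change of −0.22 (SE 0.12, 95% interval −0.48 to 0.042, adjusted p = 0.911), the lowest estimate of the 29 genes, with an unadjusted p of 0.0919 in edgeR. Without WT5 it was −0.12 (edgeR, unadjusted p = 0.224, adjusted p = 0.711), and without HET7 it was −0.18 (edgeR, unadjusted p = 0.219, adjusted p = 0.999). Without WT41 it was −0.28 (edgeR, unadjusted p = 0.0377, adjusted p = 0.969), and without WT15 it was −0.27 (edgeR, unadjusted p = 0.0447, adjusted p = 0.910). In edgeR *Tbr1* was at −0.40 without the embryos with choroid plexus RNA (unadjusted p = 0.0131, adjusted p = 0.999) and at −0.30 with the choroid plexus score as covariate (unadjusted p = 0.0232, adjusted p = 0.887). *Fezf2* (chr14:12342094-12348189, minus strand), the zinc-finger factor that specifies subcerebral projection neurons, was at 182, 186, 213, 171 and 226 CPM in the WT embryos and 237, 186, 171 and 211 CPM in the HET embryos. HET5 was the highest embryo, HET7 and WT41 were level at the bottom, and the groups overlapped. *Fezf2* had a log2 fold change of 0.041 (SE 0.11, 95% interval −0.20 to 0.28, adjusted p = 0.960).

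*Bcl11b* (chr12:107910403-108003602, minus strand), also called Ctip2, acts downstream of *Fezf2* in these neurons and is also expressed in striatal neurons. It was at 365, 288, 281, 280.5 and 319.7 CPM in the WT embryos and 303, 297, 299 and 324 CPM in the HET embryos. WT5 was the highest embryo, and every HET embryo lay within the WT range. *Bcl11b* had a log2 fold change of −0.0039 (SE 0.084, 95% interval −0.19 to 0.18, adjusted p = 0.995), a 95% interval of the HET to WT ratio from 0.877 to 1.13. *Sox5* (chr6:143828425-144781977, minus strand), which times the birth of deep-layer neurons, was at 193, 175, 184, 180.5 and 244 CPM in the WT embryos and 231, 191, 151 and 179 CPM in the HET embryos. WT43 and HET5 were highest and HET7 was lowest. *Sox5* had a log2 fold change of −0.056 (SE 0.13, 95% interval −0.34 to 0.23, adjusted p = 0.951).

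Of the other deep-layer genes, *Tle4*, a Groucho corepressor of corticothalamic neurons, ranged from 86.0 CPM in HET5 to 112 CPM in HET7. *Tle4* had a log2 fold change of −0.12 (SE 0.082, 95% interval −0.30 to 0.064, adjusted p = 0.911), with HET5 and HET6 below every WT embryo and HET7 above. The forkhead genes *Foxp1* and *Foxp2* are shared between cortex and striatum. *Foxp1* ranged from 57.5 CPM in WT16 to 81.9 CPM in HET7, with HET7 and HET24 above every WT embryo and a log2 fold change of 0.15 (SE 0.10, 95% interval −0.070 to 0.38, adjusted p = 0.911). *Foxp2* ranged from 11.2 CPM in WT43 to 27.6 CPM in WT5 with a log2 fold change of 0.0036 (SE 0.24, 95% interval −0.53 to 0.54, adjusted p = 0.998). *Ldb2*, a LIM-domain-binding cofactor, was at 22.1, 40.5, 41.9, 36.7 and 41.9 CPM in the WT embryos and 32.8, 31.4, 40.2 and 35.2 CPM in the HET embryos. WT5 was lowest, followed by HET6 and HET5, and *Ldb2* had a log2 fold change of −0.069 (SE 0.17, 95% interval −0.44 to 0.30, adjusted p = 0.954). *Crym*, the thyroid hormone-binding mu-crystallin, was at 64.4, 101, 102, 82.3 and 104 CPM in the WT embryos and 99.8, 87.9, 98.9 and 101 CPM in the HET embryos. WT5, WT41 and HET6 were the 3 lowest embryos, and *Crym* had a log2 fold change of 0.096 (SE 0.13, 95% interval −0.19 to 0.38, adjusted p = 0.935).

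The upper-layer genes had 4 estimates above 0 and 2 below, none past the test (lowest adjusted p = 0.913). *Cux2* (chr5:121856366-122050102, minus strand), a cut-homeodomain factor of upper-layer neurons and their precursors, was at 47.5, 59.7, 57.1, 71.3 and 67.1 CPM in the WT embryos and 49.0, 50.6, 64.3 and 74.8 CPM in the HET embryos. WT5, HET5 and HET6 were the 3 lowest embryos, HET24 and WT41 were the highest, and the groups overlapped. *Cux2* had a log2 fold change of −0.021 (SE 0.14, 95% interval −0.34 to 0.30, adjusted p = 0.986). Its relative *Cux1* ranged from 128 CPM in WT16 to 184 CPM in WT5 with a log2 fold change of 0.0096. *Rorb* (chr19:18930605-19111196, minus strand), the nuclear receptor of the granular layer, was scarce, at 9.57, 7.98, 9.27, 7.97 and 9.54 CPM in the WT embryos and 8.34, 10.3, 11.6 and 7.72 CPM in the HET embryos. HET6 and HET7 lay above every WT embryo and HET24 lay below them all. *Rorb* had a log2 fold change of 0.10 (SE 0.13, 95% interval −0.20 to 0.40, adjusted p = 0.935).

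The 3 POU factors of this group differed in how much they varied. *Pou3f1* (chr4:124656807-124660655, plus strand) was at 9.98, 15.8, 28.9, 21.7 and 19.8 CPM in the WT embryos and 16.7, 17.4, 32.7 and 26.6 CPM in the HET embryos. It spanned 3.27-fold across the 9 embryos, from WT5 at the bottom to HET7 at the top. *Pou3f1* had a log2 fold change of 0.28 (SE 0.28, 95% interval −0.35 to 0.91, adjusted p = 0.913). It ran from 0.075 without HET7 to 0.47 without WT16, and was 0.58 without the embryos with choroid plexus RNA. *Pou3f2* (chr4:22482780-22488366, minus strand), or Brn2, was at 113, 69.3, 104, 87.1 and 87.6 CPM in the WT embryos and 79.3, 96.2, 115 and 90.2 CPM in the HET embryos. HET7 and WT5 were highest and WT15 lowest. *Pou3f2* had a log2 fold change of 0.047 (SE 0.14, 95% interval −0.27 to 0.36, adjusted p = 0.966). *Pou3f3* (chr1:42695768-42703176, plus strand), or Brn1, was the most abundant of the 3, also per kb of exon, at 447, 366, 495, 392 and 414 CPM in the WT embryos and 426, 386, 449 and 383 CPM in the HET embryos. WT16 was highest and WT15 lowest, with all HET embryos between them. *Pou3f3* had a log2 fold change of −0.040 (SE 0.093, 95% interval −0.25 to 0.16, adjusted p = 0.952).

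Ratios of consecutive stages within an embryo do not depend on how libraries are scaled, and 4 were compared between the genotypes. The smallest p this design can give is 0.00794. The log2 ratio of *Tbr1* to *Eomes* counts was −0.41, −0.64, −0.57, −0.83 and −0.83 in the WT embryos and −1.16, −0.99, −0.83 and −0.69 in the HET embryos. WT5 was the highest embryo and HET5 the lowest, with HET24 and HET7 among the WT embryos. It was −0.66 ± 0.18 over the 5 WT embryos and −0.92 ± 0.20 over the 4 HET embryos (mean ± SD), a difference of −0.26 (exact two-sided permutation test, p = 0.103, 0.413 adjusted over the 4 ratios). For *Eomes* to *Pax6* the log2 ratio was 1.38 ± 0.12 over the 5 WT embryos and 1.31 ± 0.080 over the 4 HET embryos (mean ± SD), a difference of −0.066 (exact two-sided permutation test, p = 0.357, 0.714 adjusted over the 4 ratios). For *Neurod1* to *Neurog2* it was 0.29 ± 0.36 over the 5 WT embryos and 0.26 ± 0.16 over the 4 HET embryos (mean ± SD), a difference of −0.022 (exact two-sided permutation test, p = 0.905, 0.905 adjusted over the 4 ratios). For the upper-layer gene *Cux2* to the deep-layer gene *Bcl11b* it was −2.35 ± 0.36 over the 5 WT embryos and −2.38 ± 0.25 over the 4 HET embryos (mean ± SD), a difference of −0.032 (exact two-sided permutation test, p = 0.897, 0.905 adjusted over the 4 ratios). None of the 4 passed this test. The difference for *Tbr1* to *Eomes* was larger than the SD of either group, and the 3 others were smaller than both.

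Per kilobase of annotated exon, the level in WT embryos was highest for *Neurod6*, at 399 ± 68.8 CPM per kb (SD, n = 5). Next came *Bhlhe22* at 94.4 ± 13.7, *Neurod2* at 88.8 ± 12.4, *Lhx2* at 83.9 ± 18.2, *Eomes* at 80.2 ± 8.74, *Neurog2* at 78.9 ± 22.9 and *Neurod1* at 76.3 ± 5.59 CPM per kb. Among these last 6, genes next to each other in the order did not differ beyond 1 SD. *Fezf2* followed at 64.2 ± 7.54 CPM per kb. The lowest were *Rorb* at 0.800 ± 0.0740, *Foxp2* at 1.02 ± 0.408 and *Neurog1* at 2.69 ± 0.882 CPM per kb. Length here is the union of all annotated exons, which for *Zbtb20* is 30.7 kb, so the value of a gene with many alternative exons is a low estimate.

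Differences between single embryos ran across both genotypes. For all 4 dorsal progenitor genes WT5 and HET5 were the 2 highest of the 9 embryos and HET6 the third, and WT41 and HET7 were among the 3 lowest. The median of the 4 levels, each divided by its mean over the 9 embryos, was 1.31 in WT5, 1.29 in HET5 and 1.07 in HET6, and 0.771 in WT15, 0.773 in WT41 and 0.849 in HET7. The 4 neurogenic and intermediate progenitor genes had medians of 1.28 in HET5 and 1.18 in WT5, against 0.782 in WT15 and 0.833 in WT41. Over the 6 upper-layer genes the order was another, with HET7 highest at 1.15 and HET5 and WT15 lowest at 0.879 and 0.874. These orders are descriptions of 9 embryos, without a test.

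**Figure D3:**
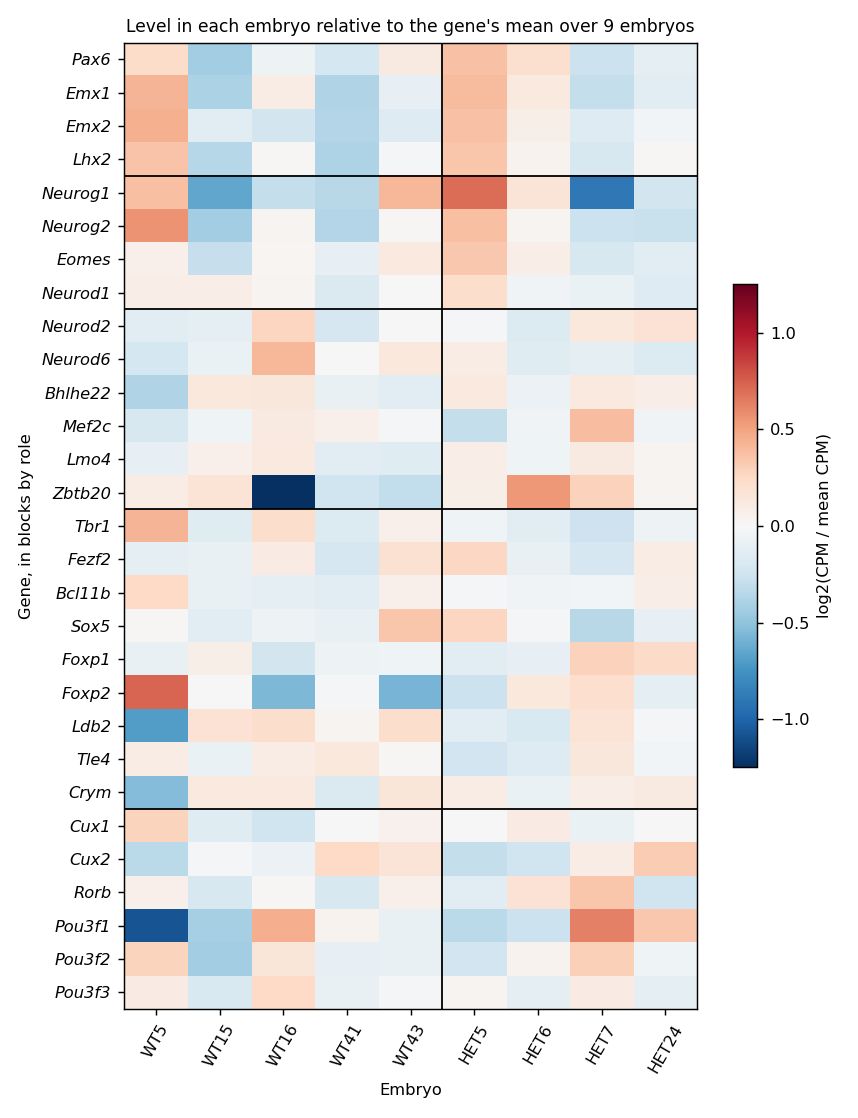
Level of each of the 29 genes (rows, in blocks by role) in each embryo (columns, WT left and HET right of the line) as log2 of CPM over the gene's mean CPM, red above and blue below the mean. In the top block, the dorsal progenitor genes, WT5 and HET5 are the reddest columns and WT15, WT41 and HET7 are blue, on both sides of the genotype line.

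The 3 embryos highest in dorsal progenitor genes, WT5, HET5 and HET6, were the 3 lowest in 2 of the 15 deep-layer and upper-layer genes, *Cux2* and *Ldb2*. The other 13 did not follow this order: 1 of these 3 embryos was the highest of all 9 for *Tbr1*, *Fezf2*, *Bcl11b*, *Foxp2* and *Cux1* (5 genes), and 1 of them was the lowest for *Tle4*, *Crym* and *Pou3f1*. Of the embryonic globins, which are outside the 29, *Hbb-y* was highest in the same 3 embryos. *Hbb-y*, the embryonic beta-like globin of primitive red cells, was at 12.1, 1.26, 1.15, 1.73 and 2.10 CPM in the WT embryos and 2.94, 2.84, 0.889 and 1.32 CPM in the HET embryos. WT5 was far above the others, with HET5 and HET6 next. The embryonic alpha-like globin *Hba-x* was also highest in WT5 (2.33 CPM) and next in HET6 (0.908 CPM), but WT43 (0.861 CPM) lay above HET5 (0.736 CPM). By contrast, the adult-type globin *Hbb-bs* was lowest in WT5 (104 CPM, against 179 to 295 CPM in the others). A list of 25 ventral forebrain genes summed to 1107.5 CPM in WT5, the highest, and to 569.9 CPM in HET5, the lowest, with the others at 622.9 to 978.4 CPM. WT5 and HET5, both high in dorsal progenitor genes, thus stood at opposite ends in ventral RNA. Of the genes described above as also striatal, *Foxp2* and *Bcl11b* were highest in WT5, and for *Foxp2* HET5 was among the lower embryos. *Foxp1* did not share this order, with 63.1 CPM in WT5, 60.8 CPM in HET5 and its highest level, 81.9 CPM, in HET7. The part of embryo age and of dissection in these levels was not tested.

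**Figure D4:**
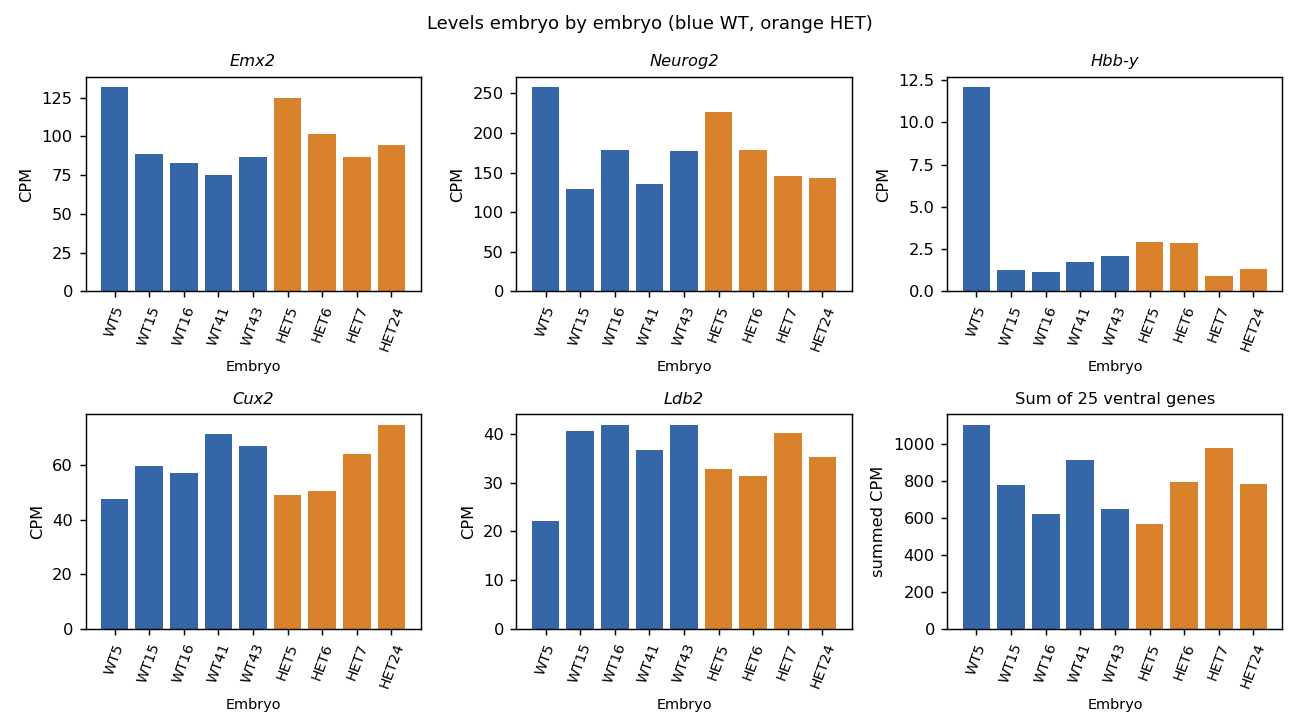
Levels embryo by embryo for *Emx2*, *Neurog2*, *Hbb-y*, *Cux2* and *Ldb2* (CPM) and for the sum of 25 ventral forebrain genes (summed CPM), WT bars in blue and HET bars in orange, all from 0. WT5, HET5 and HET6 hold the 3 highest bars for *Emx2* and *Hbb-y* and the 3 lowest for *Cux2* and *Ldb2*, the only 2 of 15 layer genes with this order, while WT5 has the highest and HET5 the lowest ventral sum.

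Other genes of the same stages were read from the same fit. Of 22 further radial glia genes, 1 was called: *Fabp7*, the brain lipid-binding protein, had a log2 fold change of −0.86 (SE 0.12, adjusted p = 0.0223), lower in HET. It was at 528, 593, 750.3, 622 and 599 CPM in the WT embryos and 268, 351, 360.1 and 386 CPM in the HET embryos. All HET embryos lay below all WT embryos. The median log2 fold change of the 22 genes was −0.020, and *Sox2*, *Hes1* and *Nes* had log2 fold changes of −0.043, −0.20 and 0.044. None of 9 intermediate progenitor genes was called, with *Dll3*, a Notch ligand, having the lowest unadjusted p (0.0872, log2 fold change −0.42). None of 13 pan-neuronal and projection neuron genes was called either, the lowest unadjusted p being that of *Nfix* (0.0425, log2 fold change 0.29).

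Of 13 further deep-layer genes none was called, and *Pcp4*, a calmodulin-binding protein of corticothalamic neurons, had the lowest adjusted p. It was at 38.3, 34.1, 37.7, 35.0 and 34.9 CPM in the WT embryos and 47.3, 49.98, 44.8 and 44.0 CPM in the HET embryos. Every HET embryo was above every WT embryo, with a log2 fold change of 0.37 (SE 0.064, adjusted p = 0.0733). The subplate gene *Ccn2* had a log2 fold change of 0.57 (SE 0.18, adjusted p = 0.788). Of 9 further upper-layer genes none was called, and the 2 with the lowest unadjusted p went in opposite directions, *Limch1* at −0.32 (adjusted p = 0.4996) and *Unc5d* at 0.20 (adjusted p = 0.788). Cajal-Retzius cell genes (8 tested), cortical hem and area patterning genes (8) and ventral forebrain genes (25) had no call. Lists for diencephalon (6 tested), midbrain and hindbrain (1), choroid plexus (8), mature astrocytes (4), red cells (6), microglia (5), endothelium (5), meningeal fibroblasts (5) and the oligodendrocyte lineage (4) had none.

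For 8 of the 29 genes, other annotated genes cover a part of the exons, and the strand setting of the counting is not given in the sources used here. The covered share was largest for *Neurod1*, at 13.01% of its exonic bases, 5.64% of them under genes on the other strand. *Cerkl*, on the same strand, covers 7.37% of *Neurod1* and was itself at 0.587 to 1.30 CPM. *Emx2os*, antisense to *Emx2*, covers 8.79% of it and was at 5.07 to 7.17 CPM. *Sox5os1* covers 9.25% of *Sox5* and stayed at or under 0.154 CPM, and *Gm2164* covers 8.57% of *Pou3f1* and stayed at or under 0.0241 CPM. The covered share was 3.16% for *Foxp1*, 2.84% for *Eomes*, 1.97% for *Cux1* and 0.609% for *Zbtb20*.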

How the data were processed

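Libraries of poly(A) RNA were sequenced on an Illumina HiSeq instrument, and 1 read of each pair was used. The authors aligned reads to GRCm38.p6 with STAR 2.7.9a and assigned them to GENCODE M25 genes with featureCounts. The deposited values are raw counts per gene for 9 embryos, with no column left unmapped and no 2 embryos identical. Here counts were filtered with edgeR's filterByExpr (minimum count 10), scaled by TMM to library size as CPM and compared, HET against WT, by edgeR's quasi-likelihood test (edgeR 4.0.16, R 4.3.3) with Benjamini-Hochberg adjustment over all genes tested and 0.05 as the threshold. Ratios of counts were compared by exact permutation tests that enumerated every assignment of embryos to the groups. The permutation test of scipy 1.17.1 was run only on made-up values, as a check of that enumeration. The fits across all genes were tested on simulated data. Alternatives were DESeq2 1.42.0, limma-voom (limma 3.58.1), other scalings and filters, marker scores as covariates (mean log2 of CPM + 0.5), and leaving out embryos. Gene coordinates and exon lengths are from GENCODE M21 (GRCm38), which lists all 29 genes.

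The 29 genes, their roles, the 17 comparison lists and the tests were chosen with earlier results of these data known. Each of the 29 is named with its level and log2 fold change. Values in every embryo and full statistics are given for *Pax6*, *Eomes*, *Tbr1*, *Fezf2*, *Bcl11b*, *Cux2*, *Rorb*, the bHLH and Pou3f genes, for genes in which 1 embryo stood apart, and for any with an unadjusted p under 0.05 or no overlap (none). *Zbtb20*, *Hbb-y*, *Hba-x*, *Hbb-bs* and, for their every-embryo values, *Ldb2* and *Crym* were singled out after their values were seen. Of other lists, genes past the threshold are named, otherwise at most 2 with the lowest p, and some genes of these lists are not reported here. Reads are not independent molecules, so depth covers counting error only.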

Additional observations from a re-analysis of the deposited data

Results flagged for a closer look

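In 4 of 66 groups of embryos tested (29 genes and 4 ratios in 2 groups each), 1 embryo stood apart from the others of its genotype by Dixon's criterion, and chance alone gives about 3.3. *Emx2* was at 131.7 CPM in WT5, against 75.4 to 88.6 CPM in the other WT embryos. *Ldb2* was at 22.08 CPM in WT5, against 36.7 to 41.9 CPM. *Sox5* was at 244.0 CPM in WT43, against 175 to 193 CPM. *Crym* was at 87.93 CPM in HET6, against 98.9 to 101 CPM in the other HET embryos.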

How the results depend on the processing

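None of the 29 genes was called at an adjusted p under 0.05 under any of the 18 alternatives, 9 of which left out 1 embryo each. Between 0 and 3 of the 29 had an unadjusted p under 0.05. It was 3 (10.3%) without the embryos with choroid plexus RNA, against 3.7% of all genes tested, and 3 without WT5, against 9.97%. It was 2 (6.90%) with a choroid plexus covariate, against 5.34%, and 2 (*Zbtb20* and *Tbr1*) without WT15, against 4.67%. It was 1 (3.45%) with DESeq2 (3.655% of all genes tested), without the low-count filter (5.26%) and with a ventral forebrain covariate (6.21%). It was also 1 without WT41 (3.58%), HET5 (7.23%) or HET7 (3.97%), and 0 in the other alternatives. Over all genes tested, edgeR called 25, DESeq2 84 (21 higher and 63 lower in HET) and edgeR without the 4 embryos with choroid plexus RNA 15; leaving out 1 embryo gave 14 to 23, the fewest without HET6 (14), HET5 (16) and HET7 (16). These small estimates often changed sign, for 20 of the 29 genes under some alternative. Adding a covariate for the choroid plexus score reversed the estimate of *Pax6* (−0.037), *Emx1* (−0.080), *Emx2* (−0.0100), *Lhx2* (−0.021), *Neurog1* (−0.20), *Eomes* (−0.041), *Foxp2* (−0.11), *Ldb2* (0.043), *Cux1* (−0.079), *Cux2* (0.070) and *Pou3f2* (−0.026). Without the embryos with choroid plexus RNA it reversed for *Pax6* (−0.048), *Emx1* (−0.083), *Emx2* (−0.063), *Lhx2* (−0.098), *Neurog1* (−0.27), *Eomes* (−0.0051), *Fezf2* (−0.043), *Foxp2* (−0.18), *Ldb2* (0.12), *Cux1* (−0.16) and *Pou3f2* (−0.049), and the differences in log2 ratio reversed for *Eomes* to *Pax6* (0.050), *Neurod1* to *Neurog2* (0.23) and *Cux2* to *Bcl11b* (0.13), where the smallest possible exact p is 0.1. *Bcl11b* lay just above 0 in limma-voom (0.0022), with DESeq2 size factors (0.00090) and at a minimum count of 50 (0.0010). Leaving out 1 embryo at a time crossed 0 for *Emx1* (−0.057 to 0.23), *Neurog1* (−0.22 to 0.30), *Neurog2* (−0.17 to 0.16), *Eomes* (−0.053 to 0.13), *Neurod1* (−0.11 to 0.030), *Mef2c* (−0.10 to 0.13), *Fezf2* (−0.048 to 0.11), *Bcl11b* (−0.035 to 0.066), *Sox5* (−0.17 to 0.043), *Foxp2* (−0.11 to 0.26), *Crym* (−0.0045 to 0.15), *Cux1* (−0.045 to 0.089), *Cux2* (−0.15 to 0.063), *Rorb* (−0.011 to 0.19), *Pou3f2* (−0.058 to 0.13), *Pou3f3* (−0.087 to 0.023), *Neurod1* to *Neurog2* (−0.15 to 0.096) and *Cux2* to *Bcl11b* (−0.18 to 0.061). All 29 estimates moved by over 1.5 times on leaving out some embryo, 13 of them without crossing 0: *Pax6* (0.011 to 0.22), *Emx2* (0.021 to 0.29), *Lhx2* (0.010 to 0.24), *Neurod2* (0.014 to 0.15), *Neurod6* (−0.21 to −0.043), *Bhlhe22* (0.051 to 0.18), *Lmo4* (0.057 to 0.13), *Zbtb20* (0.31 to 0.61), *Tbr1* (−0.28 to −0.12), *Foxp1* (0.082 to 0.22), *Ldb2* (−0.20 to −0.011), *Tle4* (−0.19 to −0.063) and *Pou3f1* (0.075 to 0.47). No paired analysis was made, because the litters of the embryos and the meaning of the embryo numbers are not given in the sources used here. Genes with few reads, such as *Neurog1*, and the 9 embryos limit the precision.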
